A study of Homo sapiens with 36 samples.

Results

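In DU145 cells, 4717 promoter peaks of the Polycomb protein MTF2 lay clear of the called peaks of the histone mark H3K27me3. They were chosen by measured values, namely the peak calls of 1 MTF2 list and 4 H3K27me3 lists. Each is a peak of MTF2 in shCTR replicate 2 that overlaps 1 kb on either side of the start of a protein-coding transcript and shares no base with an H3K27me3 peak in either condition or replicate. Free of H3K27me3, or without the mark, means here that no peak of it was called, which is not the same as its absence. The starting list has 32254 peaks, of which 8292 (25.7%) lie at such a promoter and 17217 (53.4%) are free of H3K27me3, so that the chosen peaks make up 56.9% of the promoter peaks. The other 3575 promoter peaks overlap H3K27me3 and serve for comparison throughout.

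DU145 is an established prostate cancer cell line. The cells carried a control hairpin (shCTR) or the hairpin shPHF19L#4, which knocks down the long isoform of PHF19. For MTF2 and H3K27me3, chromatin immunoprecipitation with sequencing was done in 2 replicates of each of these conditions, and lists of EZH2, SUZ12 and PHF19 peaks in shCTR cells are read beside them. The MTF2 and H3K27me3 libraries also received an antibody to Drosophila H2Av, for a fly spike-in that the peak scores do not use. Peaks were called separately for each library, so a replicate is 1 list, and read totals are absent from the lists, which leaves library depth unknown.

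Polycomb repressive complex 2, or PRC2, holds the methyltransferase EZH2 with SUZ12 and EED and places H3K27me3, a mark of silenced developmental genes. MTF2 and PHF19 are Polycomb-like proteins that join PRC2 and bring it to chromatin, and the DNA-binding part of these proteins favours unmethylated CpG, for MTF2 above all within GCG. CpG islands cover most promoters of broadly active genes as well as those of silenced developmental regulators.

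DNA from within 4 of the highest-scoring of these peaks is printed so that its CpG can be read directly. Each sequence is 200 bases of the forward strand of hg19 (GRCh37), 5′ to 3′, from the window without an exon that lies closest to the peak centre, and capitals mark each CG. All 4 windows lie beside the centre and do not cover it. The NKX2-1 window (chr14:36989562-36989761) lies in an intron of NKX2-1 and that of ABTB3 (chr12:107713853-107714052) in an intron of ABTB3. CCND1 (chr11:69458280-69458479) and TBC1D30 (chr12:65175067-65175266) are also windows in introns of these genes.
NKX2-1: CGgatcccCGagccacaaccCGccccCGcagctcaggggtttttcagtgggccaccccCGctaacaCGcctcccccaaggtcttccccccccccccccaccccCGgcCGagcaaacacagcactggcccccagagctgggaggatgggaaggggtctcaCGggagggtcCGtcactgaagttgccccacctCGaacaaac
ABTB3: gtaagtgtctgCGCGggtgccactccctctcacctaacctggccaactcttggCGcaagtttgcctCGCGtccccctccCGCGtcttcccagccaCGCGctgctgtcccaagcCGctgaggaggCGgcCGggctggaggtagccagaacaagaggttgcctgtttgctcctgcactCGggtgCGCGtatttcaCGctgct
CCND1: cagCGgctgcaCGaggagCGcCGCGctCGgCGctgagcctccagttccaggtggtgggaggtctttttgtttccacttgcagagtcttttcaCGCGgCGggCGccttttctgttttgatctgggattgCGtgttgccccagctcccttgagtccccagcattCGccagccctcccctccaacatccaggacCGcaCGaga
TBC1D30: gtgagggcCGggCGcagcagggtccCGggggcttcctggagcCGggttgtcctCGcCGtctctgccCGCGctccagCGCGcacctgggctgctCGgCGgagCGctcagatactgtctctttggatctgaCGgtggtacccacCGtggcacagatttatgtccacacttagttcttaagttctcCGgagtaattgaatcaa

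For comparison, 3 windows chosen in the same way come from 3 of the 4 H3K27me3-overlapping promoter peaks with the highest score. They are LRP4 (chr11:46938910-46939109) and GGTA1 (chr9:124261544-124261743), both in introns, and VENTX (chr10:135050793-135050992), between genes.
LRP4: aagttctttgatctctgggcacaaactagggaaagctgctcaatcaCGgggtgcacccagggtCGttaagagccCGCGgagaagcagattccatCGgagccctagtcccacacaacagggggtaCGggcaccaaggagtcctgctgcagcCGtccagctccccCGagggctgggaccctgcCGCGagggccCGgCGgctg
GGTA1: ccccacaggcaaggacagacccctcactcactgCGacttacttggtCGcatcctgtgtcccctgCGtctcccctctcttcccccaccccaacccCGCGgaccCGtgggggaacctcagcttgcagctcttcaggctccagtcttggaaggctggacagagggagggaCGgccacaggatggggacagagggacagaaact
VENTX: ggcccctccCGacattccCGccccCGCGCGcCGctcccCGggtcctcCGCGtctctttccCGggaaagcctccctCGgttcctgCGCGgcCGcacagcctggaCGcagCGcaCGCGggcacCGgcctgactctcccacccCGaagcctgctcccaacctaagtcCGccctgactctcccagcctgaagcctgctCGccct
The printed windows overlap in CpG content between both kinds of peak. The 4 without H3K27me3 hold 11 CpG in NKX2-1, 15 in CCND1 and 16 in both ABTB3 and TBC1D30. The 3 with H3K27me3 hold 7 in GGTA1, 12 in LRP4 and 22 in VENTX. The trinucleotide GCG, counted on both strands, occurs 4 times in the NKX2-1 window, 18 times in ABTB3, 16 in CCND1 and 13 in TBC1D30, and 5 times in LRP4, 5 in GGTA1 and 20 in VENTX.

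The MACS score of a peak is larger the further its reads stand above the control library, and the lowest score listed is 50. Because the score comes from the list used to choose the peaks, it is a description. The 4717 peaks have a median score of 81.1, with quartiles of 61.7 and 121. The 3575 promoter peaks with H3K27me3 have a median of 319, and promoter-distant peaks free of the mark a median of 61.5. The H3K27me3-free promoter peaks thus stand between these groups, near the 72.0 of all 32254 peaks. A score of at least 100 was reached by 1688 of them (35.8%), against 80.4% of promoter peaks with the mark. At a score of at least 500 there were 13 (0.276%), against 1384 (38.7%). High scores were nearly absent once H3K27me3 peaks were set aside. The peaks were also narrower, with a median width of 1352 bp against 2179 bp.

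**Figure D1:**
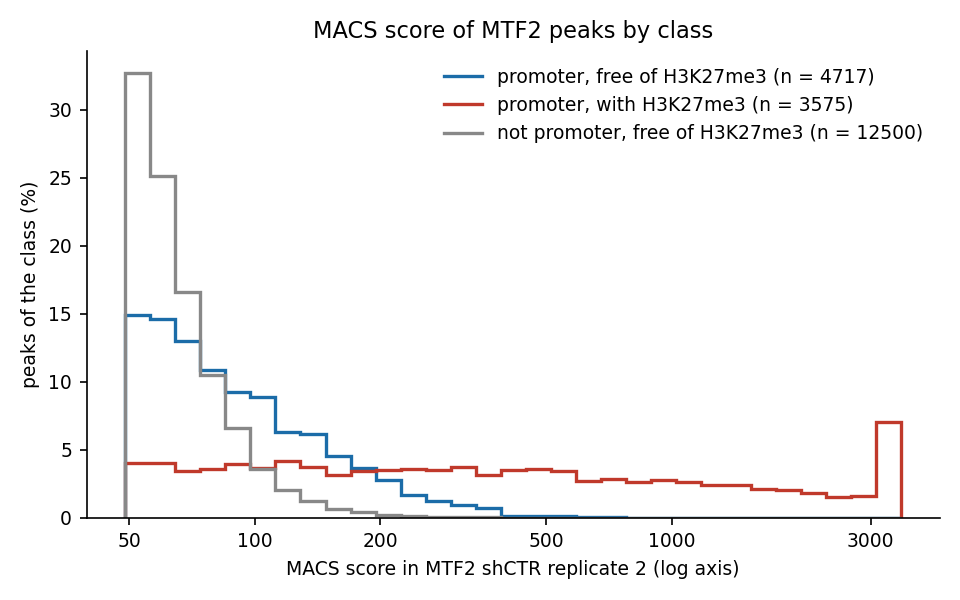
Percentage of peaks of each class by MACS score in MTF2 shCTR replicate 2, on a log axis, with lines for promoter peaks free of H3K27me3, promoter peaks with it and H3K27me3-free peaks away from promoters. The H3K27me3-free promoter peaks lie mostly under a score of 200, while those with H3K27me3 reach to the end of the scale at about 3100.

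The highest score, 2930, belongs to a peak at NKX2-1 that spans 17694 bp (chr14:36981013-36998706). NKX2-1 encodes a homeodomain transcription factor of thyroid and lung. The nearest H3K27me3 peak lies 267 bp away in the shCTR replicate 1 list, and at 4.12, 7.49 and 40.5 kb in shCTR replicate 2 and shPHF19L#4 replicates 1 and 2. This peak met an EZH2 and a PHF19 peak, each in replicate 2. It thus lies beside a called H3K27me3 peak without sharing a base with it, and it stands apart from the other peaks in score.

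HMGA2, the gene of an architectural chromatin protein, has the next score, 852. Its nearest H3K27me3 peak is 66.5 kb away. ABTB3, which encodes an ankyrin-repeat and BTB-domain protein, scored 754, with H3K27me3 at 0.968 kb in shPHF19L#4 replicate 1. CCND1, the gene of cyclin D1, scored 680 over 5185 bp (chr11:69455901-69461085), with the mark at 2.28 kb in shPHF19L#4 replicate 2 and at 55.8 kb or more in the other lists. These 4 peaks differ widely in how close the mark comes. TBC1D30, the gene of a Rab regulator, scored 598. GLUL, which encodes glutamine synthetase, scored 559 and CABLES1, of a kinase-binding protein, 555. MYC, the gene of the growth-promoting transcription factor, scored 548, and the zinc finger gene ZKSCAN7 543. Of the peaks named here, all except ABTB3 met a PHF19 peak in shCTR replicate 2.

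The other 3 MTF2 lists were not used to choose the peaks. They are very unequal in size, with 34623 peaks in shPHF19L#4 replicate 2, 2516 in shCTR replicate 1 and 4216 in shPHF19L#4 replicate 1. In the large list, 2988 of the 4717 peaks (63.3%, 95% Wilson interval 62.0 to 64.7) were overlapped by a peak, against 50.4% of all peaks of the starting list. The promoter peaks with H3K27me3 were found there in 95.9% of cases. Wilson intervals cover counting error only. Regions are not replicates, and 2 libraries against 2 allow no exact p under 0.05, so none of these differences was tested.

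In the list of the same condition, shCTR replicate 1, only 5 peaks (0.106%, interval 0.0453 to 0.248) were found, against 4.80% of all peaks and 23.7% of promoter peaks with H3K27me3. In shPHF19L#4 replicate 1, 18 (0.382%, interval 0.242 to 0.602) were found, against 10.5% of all peaks and 47.4% of promoter peaks with the mark. Without the H3K27me3 list of shPHF19L#4 replicate 2, the shares were 0.161% and 1.81% of 5585 peaks, and without both replicate 2 lists of the mark 0.418% and 2.57% of 5748. The replicate 1 lists thus give almost no second call for the H3K27me3-free promoter peaks. Starting from the replicate 1 lists shows the same, since 22 of 858 promoter peaks in shCTR and 35 of 1666 in shPHF19L#4 were free of H3K27me3. A peak that is missing from a list scored under its threshold, which is not the same as no binding, and the part of library depth in this was not tested.

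By combination of lists, 2969 peaks were shared with shPHF19L#4 replicate 2 alone and 1726 (36.6%) with no other MTF2 list. Of all 32254 peaks 49.3% were in no other list, of H3K27me3-free peaks away from promoters 86.7% and of promoter peaks with H3K27me3 4.11%. A further 15 peaks were in both shPHF19L#4 lists, 3 in shPHF19L#4 replicate 2 and shCTR replicate 1, 2 in shPHF19L#4 replicate 1 alone and 1 in shCTR replicate 1 alone. A single peak was in all 4 lists, at NALF2 on chromosome X, which encodes an auxiliary factor of the sodium leak channel NALCN. NALF2 scored 208 in shCTR replicate 2 and 986 in shPHF19L#4 replicate 2, and its nearest H3K27me3 peak is 2.09 kb away. The other 4 peaks found in shCTR replicate 1, chosen after their values were seen, lie at AHR (293), MAT2B (177), GLRB (136) and GNG2 (123), with the score in parentheses. These include the receptor for dioxins and a glycine receptor subunit, so no single kind of gene makes up the group.

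Presence in shPHF19L#4 replicate 2 followed the score. From 50 to under 75, 44.8% of 2058 peaks were found there, and from 100 to under 150, 81.3% of 961. From 200 to under 300 it was 99.2% of 252, and all 85 peaks from 300 to under 500 and all 13 above were found. The missing peaks were mostly weak, as the 1729 absent ones have a median score of 66.1. Within the same score class, promoter peaks with H3K27me3 were found more often up to a score of 200, at 76.7% from 50 to under 75 and 98.3% from 100 to under 150. In shPHF19L#4 replicate 1 the gap held in every class, from 0.194% against 9.43% in the lowest to 3.53% against 39.7% from 300 to under 500. Score alone therefore does not line up the groups in that list. The highest class holds only 13 peaks without the mark, of which 1, at ZKSCAN7, was in the list, against 87.6% of those with it.

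**Figure D2:**
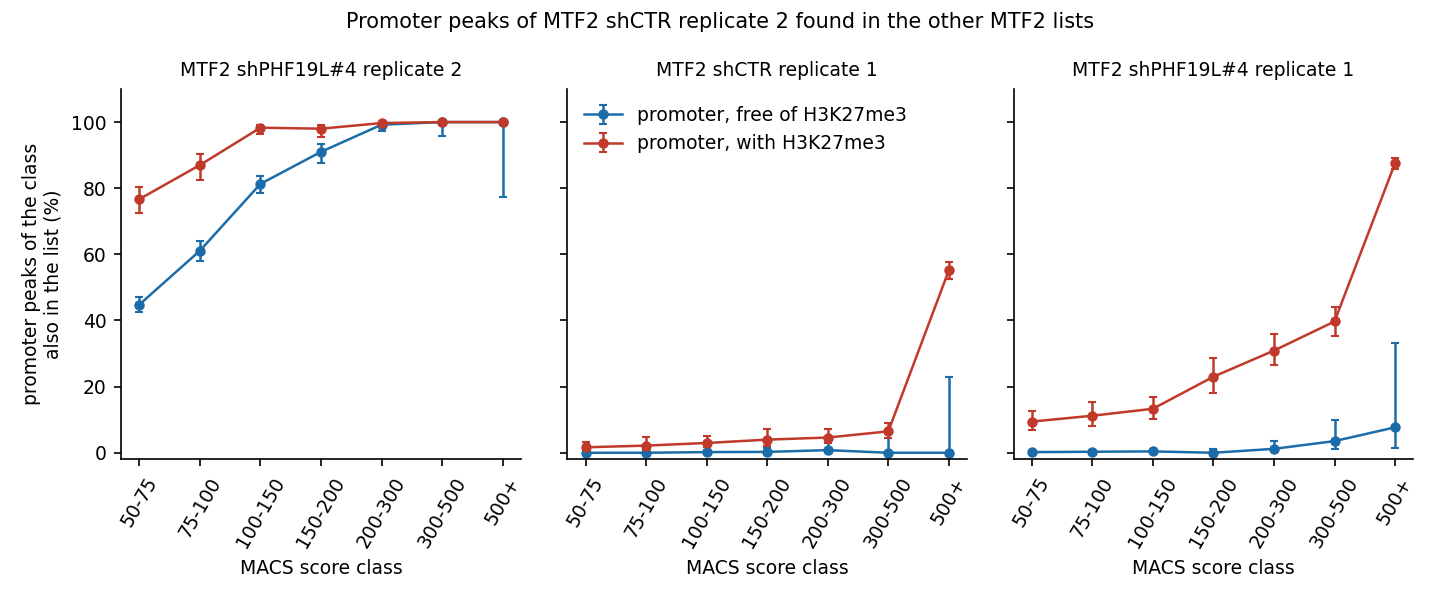
Percentage of promoter peaks of MTF2 shCTR replicate 2 that are overlapped by a peak in each of the other MTF2 lists, by MACS score class, with 95% Wilson intervals as bars. In shPHF19L#4 replicate 2 both kinds of promoter peak reach 100% from a score of 300, while in the replicate 1 lists the H3K27me3-free peaks stay under 8%.

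Some strong peaks were nonetheless absent from shPHF19L#4 replicate 2. The 5 with the highest score, chosen after their values were seen, lie at ADAL and LCMT2 (229), TMEM168 (207), MPP3 (198), PABPC4 (194) and INF2 (188). PABPC4 encodes a poly(A)-binding protein and INF2 a formin.

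Applied to shPHF19L#4 replicate 2 as the starting list, the same choice gives 5008 peaks. Of the 4717 peaks, 2914 (61.8%) overlapped these, and of the 5008, 2881 (57.5%) overlapped the 4717. The set of promoters therefore differs in good part from 1 large list to the other.

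For peaks in both replicate 2 lists, the score can be set side by side, though it is not scaled between libraries. In shPHF19L#4 replicate 2, 1064 peaks share a score of exactly 3100 and 40 exceed it. In shCTR replicate 2, 275 peaks share that score and 20 exceed it. In both lists 3100 thus acts largely as a ceiling and not as a measured difference between peaks. Of the 2988 peaks, 2 met a shPHF19L#4 peak at 3100, NKX2-1 and SYT15, against 931 of 3427 promoter peaks with H3K27me3. A further 28 of the latter met a higher score. Ratios that involve the ceiling are limited by it. Over all 16270 such peaks, 13104 (80.5%) had the higher score in shPHF19L#4, and the median ratio of shPHF19L#4 to shCTR was 1.97. Over the 2988 H3K27me3-free promoter peaks, 1972 (66.0%) had the higher score in shPHF19L#4, with medians of 98.9 in shCTR and 127 in shPHF19L#4 and a median ratio of 1.27. Promoter peaks with H3K27me3 had medians of 344 and 1324 and a ratio of 2.65. These values cover only peaks called in both lists. No ratio exists for the 1729 H3K27me3-free promoter peaks and the 148 with the mark that were absent from shPHF19L#4 replicate 2. Absent peaks scored under the threshold there, so leaving them out tends to raise the ratios, and unequally between the groups. The H3K27me3-free promoter peaks thus stood below the typical ratio of the list and those with the mark above it. A score at least 2 times as high in shPHF19L#4 was seen in 23.1% of the former and 65.9% of the latter.

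In 58 cases (1.94%) the shPHF19L#4 peak itself reached an H3K27me3 peak. Since no shCTR peak of the group touches the mark, a peak has to extend further in shPHF19L#4 to be among the 58, so their larger values follow in part from the split and are given as a description. Their median width was 1269 bp in shCTR and 2832 bp in shPHF19L#4, with a median score ratio of 4.94. The other 2930 had median widths of 1532 and 1667 bp and a ratio of 1.26. The 5 highest ratios at a score of 100 or more, chosen after their values were seen, all belong to peaks of this kind. SYT15, of a synaptotagmin, scored 123 in shCTR and the ceiling of 3100 in shPHF19L#4, under peaks of 2307 and 11259 bp. GPR137B scored 171 and 2207, SLC25A29 109 and 1188, ZNF827 103 and 948, and NCOA1 101 and 790. These peaks lay from 46 to 1505 bp from the nearest H3K27me3 peak of any list. At SLC25A29 and NCOA1 only the shPHF19L#4 replicate 2 list had the mark so close. In the other lists it lay 142 kb from SLC25A29 and 673 kb or more from NCOA1. At ZNF827 it lay 692 kb away in shCTR replicate 2. Which peaks lie beside marked regions thus depends on the list.

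At the other end, 4 peaks with low ratios were chosen in the same way. PPP2R1B scored 262 in shCTR and 53.7 in shPHF19L#4, a ratio of 0.205. MRPS30 scored 285 and 67.8, EEF2 304 and 80.2, and MSL2 229 and 63.5. Their products are a phosphatase scaffold, a mitochondrial ribosomal protein, an elongation factor and a subunit of the MSL acetylation complex. No shPHF19L#4 peak at these 4 genes reached H3K27me3. Of the 10 highest-scoring peaks, 8 had the higher score in shPHF19L#4, among them HMGA2 with 1788 and ZKSCAN7 with 680. NKX2-1 is counted with these, but its 2930 and 3100 lie at the ceiling or close to it and are not read as a difference. TBC1D30 (554) and MYC (358) had the lower one.

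**Figure D3:**
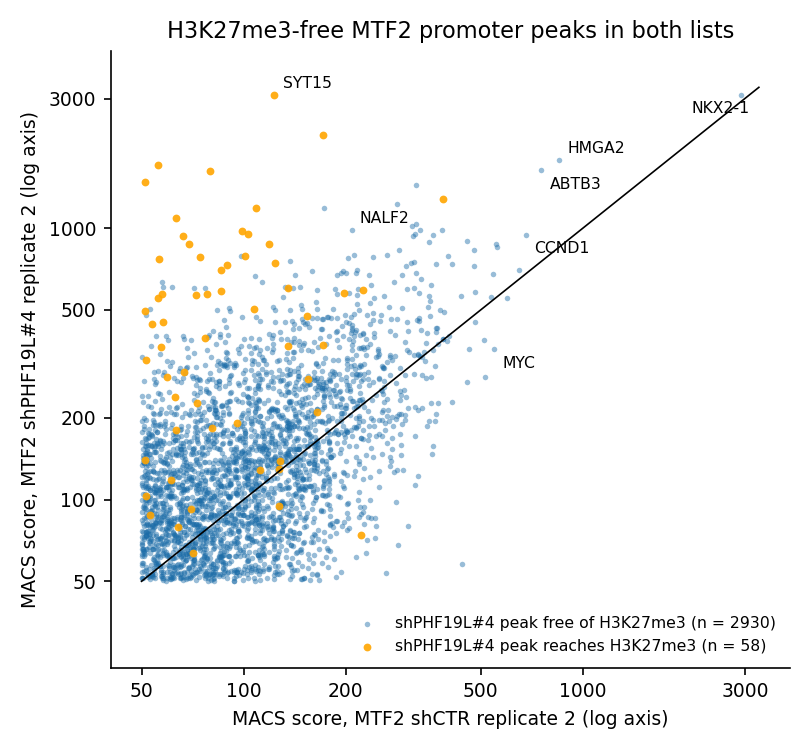
MACS score of each H3K27me3-free promoter peak in MTF2 shCTR replicate 2 (horizontal) and shPHF19L#4 replicate 2 (vertical), both on log axes, for the 2988 peaks in both lists, with the line of equal scores. Orange points mark the 58 whose shPHF19L#4 peak reaches H3K27me3, most of them far above the line.

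The 10 peaks (0.212%) that met a region of the authors' MTF2 DiffBind table, chosen after their values were seen, are few beside the 1609 promoter peaks with H3K27me3 that did (45.0%). For the authors' MTF2, EZH2 and SUZ12 tables, the share over all peaks of the starting list was not counted. The MTF2 table lists only regions under the authors' threshold, and 2539 of its 2546 regions have the higher mean in shPHF19L#4, so a region with the higher mean says little by itself. All 10 have the higher mean. At TLE4, a Groucho co-repressor gene, the authors' mean was 7.29 in shCTR and 7.76 in shPHF19L#4, in log2 units. At CAMK2N1, of a kinase inhibitor, the authors' mean was 6.61 and 7.81, and at NALF2 6.13 and 7.13. SYT15, CREB5, EFNB1, TRIM2 and AC104057.1 are also among the 10. At CDK4 the authors' mean was 8.34 and 9.26. The regions at CDK4, SYT15 and CREB5 lie mostly on the DNA beside the peak, so their means are not those of the peak itself. No peak met a region with the lower mean in shPHF19L#4.

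In the authors' EZH2 table, 8 peaks (0.170%) met a region, against 1730 promoter peaks with H3K27me3 (48.4%). All 8 had the higher mean in shPHF19L#4, as 2407 of the 2408 listed regions do. NKX2-1 had an authors' mean of 10.15 in shCTR and 11.04 in shPHF19L#4, HMGA2 6.18 and 6.89, and NALF2 3.20 and 5.86. The other 5, also chosen after their values were seen, are BOC, GPR137B, ARHGEF1, NFIX and AXIN2. Of these regions, all except that of BOC lie mostly outside the peak, and that of AXIN2 only touches its edge. In the authors' SUZ12 table, 0 of the peaks met a region, against 425 promoter peaks with the mark.

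The choice of peaks did not use the lists of EZH2, SUZ12 and PHF19 in shCTR cells. An EZH2 peak in either replicate met 6 of the 4717 peaks (0.127%), against 4.69% of all peaks and 27.4% of promoter peaks with H3K27me3. A SUZ12 peak met 0, against 1.09% of all peaks and 5.15% of promoter peaks with the mark. PHF19 met 292 (6.19%), against 16.2% of all peaks and 49.3% of promoter peaks with the mark. Any of the 3 proteins met 293 (6.21%), which was 10.2% with both replicate 2 lists of H3K27me3 left out. The same share was 17.0% of all peaks, 7.14% of H3K27me3-free peaks away from promoters and 52.1% of promoter peaks with the mark. Most MTF2 calls of the starting list thus came without a call of another PRC2 protein, and both H3K27me3-free classes had similar shares. All 292 were met in PHF19 replicate 2, which has 14218 peaks, and 4 in replicate 1, which has 1072. Fewer peaks of these proteins were called than of MTF2, with 2060 and 1236 for EZH2 and 1523 and 232 for SUZ12, which limits how many could coincide. In replicate 1, 37.8% of the EZH2 and 48.1% of the SUZ12 peaks lie on chromosome 14, against 5.66% of the starting list, which limits it further.

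Of the 6 with EZH2, the 5 highest in score are NKX2-1, HMGA2, TLE4 (478), the histone genes H1-5 and H2AC16 (218) and ZFP36 (140), all met in EZH2 replicate 2 and in PHF19 replicate 2. The sixth, IRAG2, chosen after its values were seen, was met in EZH2 replicate 1. PHF19 followed the score, with a replicate 2 peak at 2.96% of peaks from 50 to under 75, 12.5% from 150 to under 200 and 38.8% from 300 to under 500. The 76.9% of the highest class rests on 13 peaks. Promoter peaks with H3K27me3 in these classes met PHF19 in 7.78%, 21.8% and 51.1%. PHF19 thus accompanied the stronger MTF2 calls in both groups, at lower rates where no H3K27me3 peak was called.

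Closeness to a transcript start is part of how both kinds of promoter peak were chosen. The start of a protein-coding transcript fell inside 80.1% of the H3K27me3-free peaks and 83.8% of those with the mark, while 70.7% and 61.8% had their centre within 500 bp of a start. The median centre lay 130 bp downstream of the nearest start, against 111 bp with the mark, and 66.3% and 61.5% of centres lay downstream. Most peaks of both kinds thus lean into the transcribed side. Starts on both strands were reached by 373 peaks (7.91%), against 3.80% with the mark, so divergent promoters were more frequent among the H3K27me3-free peaks. A single gene was reached by 90.4%.

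Just inside the limit of 1 kb lay the peaks at B3GNT2 (998 bp from the start), KRT7 (991 bp) and CTSH (990 bp), and just outside it peaks near CRIP3 (1001 bp), ARAP1 (1002 bp) and COX5A (1003 bp). Closest to an H3K27me3 peak without touching it were SLC39A3 (2 bp), FOXD2 (13 bp) and UPK3A (15 bp), and the smallest overlaps were at MEF2A (3 bp), RASGRP3 (10 bp) and ALPK3 (17 bp). The peaks at MAT2A, CENPP and FNBP4 are among those tied at the lowest score, the limit of 50. Both limits of distance are passed by a few bases only, so peaks at the edges of the choice differ little.

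Most peaks were nonetheless far from the mark. The nearest H3K27me3 peak lay a median of 71.3 kb away, with quartiles of 20.2 and 179 kb. It lay within 1 kb of 194 peaks (4.11%), within 2.5 kb of 326 (6.91%), and 100 kb or more from 1916 (40.6%). Scores hardly differed with distance, with a median of 81.0 within 1 kb and 84.0 at 100 kb or more. Of the 18 peaks found in MTF2 shPHF19L#4 replicate 1, 9 were among the 326.

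How many peaks count as free depends on a single H3K27me3 list. The lists overlapped 2178 of the 8292 promoter peaks in shCTR replicate 1, 1976 in shCTR replicate 2, 2267 in shPHF19L#4 replicate 1 and 3529 in shPHF19L#4 replicate 2. The last, with 57026 peaks, was the only list to overlap 868 promoter peaks. Without it, 5585 peaks (67.4%) were free of the mark, and 101 of those (1.81%) were in MTF2 shPHF19L#4 replicate 1 in place of 18. All 4 lists overlapped 1517 promoter peaks.

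On autosomes, the share of promoter peaks free of H3K27me3 ran from 48.1% on chromosome 22 to 64.0% on chromosome 6. Chromosome X had 17 of 58 (29.3%), and 18 peaks were on X and Y together. Chromosome 14 held 4.05% of the H3K27me3-free promoter peaks, against 5.66% of all peaks and 24.9% of the MTF2 shCTR replicate 1 list. The crowding of that list on chromosome 14 is thus not seen among the promoter peaks described here.

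The 4717 peaks belong to 4666 protein-coding genes, which is 23.5% of 19834. An H3K27me3-overlapping MTF2 promoter peak was found at 3180 genes (16.0%), 270 genes had both kinds and 12258 had neither. Of the 4447 genes with H3K27me3 at a promoter, 73.4% had an MTF2 promoter peak, against 28.0% of the 15387 genes without the mark. MTF2 calls were thus more frequent at marked genes, but the unmarked genes are so many that they supply more of the promoter peaks.

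The genes of the Polycomb system were among them. Of 13 PRC2 genes, 4 had such a peak (30.8%) and 1 a peak with H3K27me3. These are JARID2 (95.5), an accessory subunit, LCOR (93.7), the locus of the PALI1 subunit, EZH2 (60.6), the methyltransferase, and PHF19 (52.6), the target of the hairpin, with the score in parentheses after each gene name here and in the lists that follow. The PHF19 peak met a PHF19 peak in replicate 2 and was absent from MTF2 in shPHF19L#4 replicate 2, where the other 3 were found. All 4 scores are near the median of the whole group or under it.

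PRC1 places ubiquitin on H2A and reads H3K27me3. Of 21 PRC1 genes, 10 had an H3K27me3-free peak (47.6%), 7 an H3K27me3-overlapping peak and 2 both. The PCGF genes, which define PRC1 variants, are represented by PCGF5 (218 and 51.8), PCGF2 (108), PCGF6 (74.1) and PCGF1 (69.2). RYBP (114) and YAF2 (50.1) belong to variant PRC1, CBX6 (111) to the chromodomain proteins that read the mark, PHC2 (66.9 and 63.5) to the polyhomeotic proteins and RNF2 (66.1) is the ubiquitin ligase. RYBP, CBX6, PCGF6 and YAF2 were absent from shPHF19L#4 replicate 2. Of 16 genes for subunits of H3K4 methyltransferase complexes, which mark active promoters, 4 had such a peak and 0 a peak with H3K27me3. The 4 all encode methyltransferases, namely KMT2D (174), KMT2B (151 and 70.9), KMT2A (119) and SETD1A (56.1).

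Among genes of basic cell functions, H3K27me3-free MTF2 peaks outnumbered H3K27me3-overlapping ones, with shares of free peaks on either side of the 23.5% of all genes. Free and overlapping are defined by H3K27me3, so the split between them largely repeats where the mark was called. It was at a promoter of 22.4% of all genes and 1.14% of cytoplasmic ribosomal protein genes. Of all genes without it at a promoter, 27.9% had a free peak. For cytoplasmic ribosomal proteins, 25 of 88 genes (28.4%) had a free peak and 1 an overlapping peak, led by RPL7 in a peak shared with RDH10 (317) and RPL10A (201). For mitochondrial ribosomal proteins it was 16 of 80 and 2, led by MRPS30 (285) and MRPS18A (240). Translation factors had 19 of 69 (27.5%) and 3, with EEF2 (304) and EIF5 (146) highest. The translation machinery thus stood close to the 23.5% of all genes and the 27.9% of genes without the mark for free peaks. It stood well under the 16.0% of all genes for overlapping ones, as few of its genes carried the mark.

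Aminoacyl-tRNA synthetases had 10 of 35 (28.6%) and 0, led by GARS1 (111) and IARS2 (105). Splicing genes had 22 of 61 (36.1%) and 0, led by SRSF12 (283) and LSM11 (130). Proteasome subunits had 15 of 48 (31.2%) and 2, led by PSMA1 (192) and PSMB9 (151). Splicing genes had the highest share of these 3 lists. Respiratory chain and ATP synthase genes had 21 of 92 (22.8%) and 4, with NDUFC2 (107) and NDUFS7 (106). RNA polymerase subunits had 7 of 34 (20.6%) and 1, with POLR1D (171) and POLR3G (170), and Mediator 5 of 30 (16.7%) and 0, with MED13L (319) and MED12L (291). These lists are small, and no share was tested against that of all genes.

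Cell cycle and genome maintenance genes were less alike. Of 31 cyclins and cyclin-dependent kinases, a list that leaves out several members of both families, 11 (35.5%) had a free peak and 5 an overlapping one. The highest scores on that list were at CCND1 and CDK13 (163). Replication genes had 7 of 37 (18.9%) and 3, with MCM7 (104) and RFC2 (79.9), and DNA repair genes 7 of 41 (17.1%) and 1, with ERCC3 (66.7). Core and linker histones had 10 of 79 (12.7%) and 3, led by H1-5 with H2AC16 (218) and H1-3 (194). Only the first of these lists exceeded the share of all genes. The replication and repair peaks were also seldom found again in shPHF19L#4 replicate 2, with 1 of 7 and 2 of 9, against 63.3% of the whole group. These counts are small. The lists ran from 0 of 3 peaks for clustered protocadherins and 3 of 10 for aminoacyl-tRNA synthetases to 9 of 9 for HOX genes. No difference between lists was tested. The zinc finger genes named ZNF, many of them repressors of mobile elements, had 142 of 508 (28.0%) and 40, with ZNF462 (328) and ZNF555 (222).

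In families of developmental regulators, overlapping peaks outnumbered free ones. H3K27me3 was at a promoter of 53.8% of HOX genes, 80.6% of other homeobox genes and 89.5% of WNT ligands, against 22.4% of all genes. As the mark defines the 2 kinds, this split largely repeats where it was called. HOX genes had 8 of 39 (20.5%) with a free peak and 21 (53.8%) with an overlapping one, and other homeobox genes 11 of 93 (11.8%) and 65 (69.9%). The highest-scoring free peaks were at HOXC9 (242) and HOXA10 (213) in the first list and at NKX2-1 and LHX1 (254) in the second. The second list leaves out some homeobox genes with a higher score than LHX1, such as HHEX (514) and HLX (357). Forkhead genes had 13 of 46 (28.3%) and 24, led by FOXD3 (287) and FOXD2 (225), and SOX genes 3 of 19 (15.8%) and 11, with SOX4 (328) and SOX13 (86.5). T-box and GATA genes had 3 of 23 (13.0%) and 10, with GATA2 (141) and TBX4 (56.9), and WNT ligands 3 of 19 (15.8%) and 16 (84.2%), with WNT3 (146) and WNT8A (55.5). In these families the mark accompanied most MTF2 promoter peaks. The score of their free peaks varied by family, with a median of 155 over 9 HOX peaks, 150 over 12 other homeobox peaks and a lower value, still above that of the whole group, over 16 forkhead peaks. The median was 70.3 for SOX, 56.9 for T-box and GATA and 55.0 for WNT, all under the 81.1 of the whole group. All 9 HOX peaks were found in shPHF19L#4 replicate 2.

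Families expressed in restricted tissues had few MTF2 peaks of either kind. Olfactory receptors had 1 of 390 (0.256%) with a free peak, at OR13J1 (65.0), and 25 with an overlapping one. Keratins had 5 of 55 (9.09%) and 2, with KRT8 (176) and KRT19 (120), the keratins of simple epithelia. Clustered protocadherins had 3 of 53 (5.66%) and 3, with PCDHB7 (74.8) and PCDHGB2 (65.6). H3K27me3 was at a promoter of 43.6% of olfactory receptor genes, so MTF2 calls were rare there with or without the mark.

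**Figure D4:**
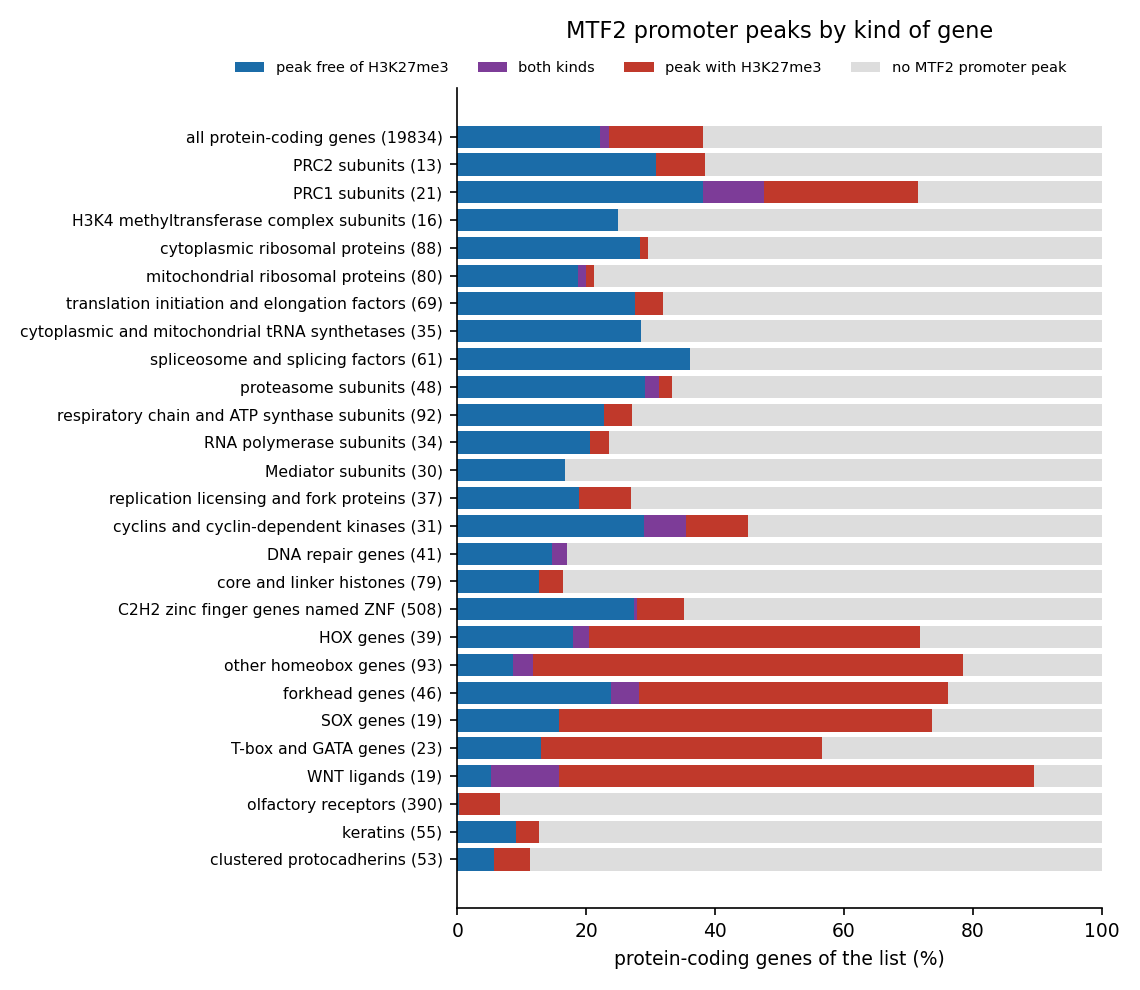
Percentage of protein-coding genes of each list that have an MTF2 promoter peak free of H3K27me3, a peak with H3K27me3, both or no MTF2 promoter peak in shCTR replicate 2, with the number of genes in parentheses. Free peaks (blue) are the main kind in lists of basic cell functions, and peaks with the mark (red) in lists of developmental regulators.

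The printed windows vary among themselves. That of NKX2-1 has a ratio of observed to expected CpG of 0.502, but it holds 200 bases beside the peak centre and is not ranked against the group. In windows of 300 bp at the peak centre, the H3K27me3-free promoter peaks had a median GC content of 66.7% and a median ratio of 0.779. Promoter peaks with H3K27me3 had 65.0% and 0.714, and all 78577 distinct protein-coding starts 62.7% and 0.709. The group is thus somewhat richer in CpG than windows at all starts. The units differ, since a gene with several starts counts more than once there and those windows are centred on the start, not on a peak. H3K27me3-free peaks away from promoters had 52.3% and 0.208, near the values of 51.3% and 0.228 for those with the mark. CpG content set promoter peaks apart from other peaks far more than H3K27me3 did. A CpG-rich window, with a GC content of at least 50% and a ratio of at least 0.6, was found at 69.3% of the H3K27me3-free promoter peaks, 60.8% of those with the mark and 56.6% of all starts.

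The trinucleotide GCG, counted on both strands with overlaps, occurred a median of 18.0 times per window in the group, 15.0 in promoter peaks with H3K27me3 and 13.0 at all starts. At least 1 copy was in 96.7% of the group's windows and in 91.1% of windows at all starts, so its presence separates little. The ratio of observed to expected CpG went with the score, from 0.705 at 50 to under 75 to 0.827 at 100 to under 150 and 0.881 at 200 to under 300. It was 0.875 from 300 to under 500, and the 0.920 above that rests on 13 peaks. The median count of GCG was 13.0 from 50 to under 75, 26.5 from 200 to under 300 and 28.0 from 300 to under 500. Stronger peaks thus lay on DNA denser in CpG.

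Peaks found again in MTF2 shPHF19L#4 replicate 2 had a median ratio of 0.833 and a CpG-rich window in 82.9%, those absent from it 0.556 and 45.8%. Peaks with PHF19 in replicate 2 had 0.717, those without 0.782. Being found again therefore went with CpG density, and meeting PHF19 did not. Over whole peaks, the ratio was 0.728 in the group and 0.617 in promoter peaks with H3K27me3, with 4.76 and 3.89 GCG per 100 bp.

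**Figure D5:**
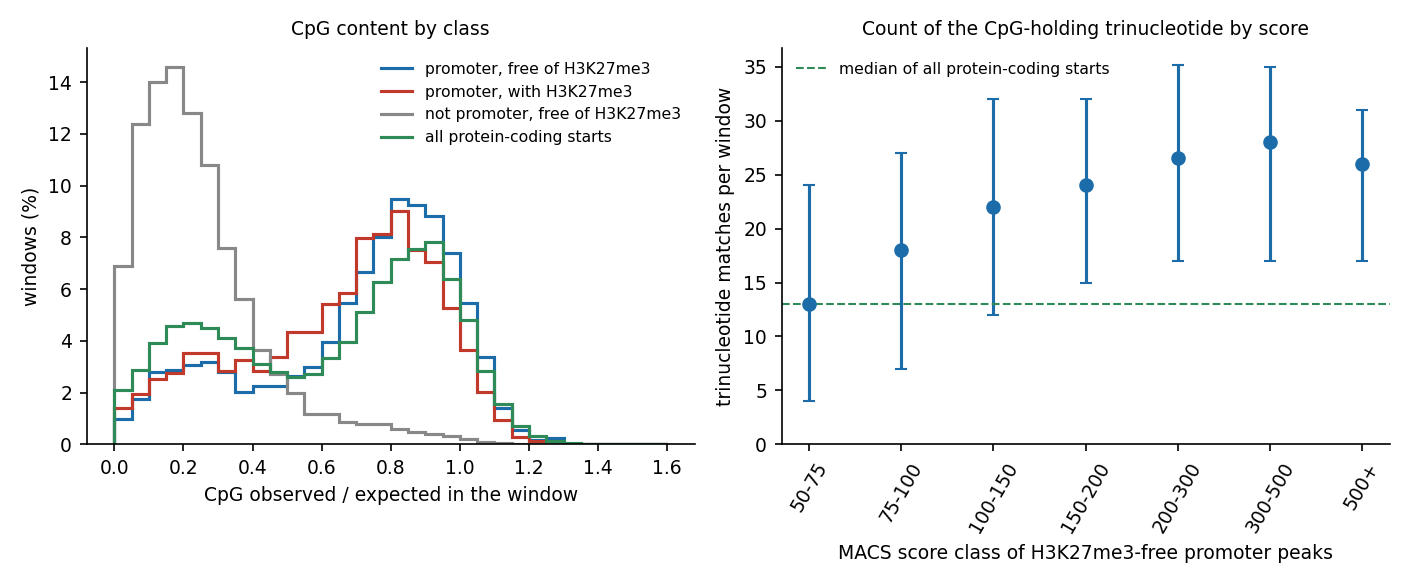
Left, percentage of 300-bp windows by ratio of observed to expected CpG, for windows at the centre of promoter peaks free of H3K27me3, promoter peaks with it, H3K27me3-free peaks away from promoters, and at all protein-coding starts. Right, median count of GCG on both strands per window (points, with quartiles as bars) by MACS score class of the H3K27me3-free promoter peaks, which lies at the dashed median of all starts in the lowest class and above it in the others.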

How the data were processed

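The peaks and gene lists were chosen with earlier results of these data known. The authors mapped reads with Bowtie to hg19 (with dm3 for fly spike-in) and called peaks with MACS on each library, so the score is their deposited MACS score, in arbitrary units, and replicate 1 lists of MTF2 hold positions only. The authors made the log2 means with DiffBind over both replicates, and their Fold and P columns were not used. Overlap means at least 1 shared bp. Starts came from 89217 protein-coding transcripts of GENCODE release 44 mapped to GRCh37, and 26 gene lists were written from gene names. Named genes are the 10 highest scores, peaks in all 4 MTF2 lists, Polycomb and H3K4 methyltransferase genes, the 2 highest scores of each other list, the 5 highest with EZH2 and peaks at each limit. Python 3.11.15, numpy 2.4.6, pandas 2.3.3, scipy 1.17.1, pysam 0.24.0, samtools 1.23.1 and matplotlib 3.10.9 were used. Code was tested on simulated data. RNA-seq and inputs were not analysed here. Alternatives were other promoter windows, scores, gene types, H3K27me3 lists, starting lists and overlaps.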

Additional observations from a re-analysis of the deposited data

How the results depend on the processing

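A count or median was taken as moved when it changed by a factor of over 1.5, and a percentage when it left the 95% interval of the main value. Of 114 alternative values, 82 stayed within these limits and 32 did not. Percentages of few peaks can change widely within them. The share in MTF2 shCTR replicate 1 stayed within its interval at 0.224%, with only the shCTR H3K27me3 lists, against 0.106%. At a score of at least 100, 1688 peaks (37.0% of promoter peaks) were free of H3K27me3, with a median score of 141, 87.2% in MTF2 shPHF19L#4 replicate 2, 0.296% in shCTR replicate 1, 0.652% in shPHF19L#4 replicate 1 and 10.9% with EZH2, SUZ12 or PHF19. Starting from MTF2 shCTR replicate 1, 22 peaks (2.56%) were free, and from shPHF19L#4 replicate 1, 35 (2.10%). With only the shCTR H3K27me3 lists, 70.1% were free, 68.9% of them in shPHF19L#4 replicate 2, 2.91% in shPHF19L#4 replicate 1 and 9.55% with EZH2, SUZ12 or PHF19. Without H3K27me3 within 2.5 kb, 53.0% were free and 0.205% in shPHF19L#4 replicate 1. With the peak centre in the window, 58.5% were free and 65.7% in shPHF19L#4 replicate 2. The latter was 57.6% with a window of 2.5 kb, 66.0% with 0.5 kb, 51.6% with all gene types and 60.2% when over 0.5 of the peak had to be covered.

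Leaving out H3K27me3 lists of a replicate or a library gave 56.9 to 69.3% free, 63.4 to 68.7% in shPHF19L#4 replicate 2, 0.106 to 0.418% in shCTR replicate 1, 0.381 to 2.57% in shPHF19L#4 replicate 1, 6.22 to 10.2% with EZH2, SUZ12 or PHF19 and a median score of 81.1 to 87.6. The cause of these differences was not tested. Leaving out H3K27me3 lists singly, leaving out chromosomes 5 and 14, the covered share and all alternatives for EZH2, SUZ12 or PHF19 were chosen after seeing the data. No paired analysis was possible because the MTF2 lists of replicate 1 hold no scores and the authors' tables no value per replicate, although both conditions have replicates 1 and 2. Library depth is unknown, and its part in which weak peaks were called was not tested.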
